A study of Homo sapiens with 24 samples.

Results

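The p50/RelA knockdown (KD) was measured on 12 of the 24 arrays of the study, 6 of the KD and 6 of its own control, chosen by their titles. All 12 were made from L1236, a Hodgkin lymphoma line that arose from B cells, so a single line stands for the disease. The KD arm received siRNA against NFKB1 at 1 µM for 3 days together with siRNA against RELA at 500 nM for 2 days, and the control arm received non-targeting siRNA. Each arm held 2 siRNA sequences in each of 3 replicates. A comparison at the end also uses the other 12 arrays of the same line, 6 of a p52/RelB KD by siRNA against RELB (1 µM, 3 days) and NFKB2 (500 nM, 2 days) and 6 of a non-targeting control of its own, with the same layout of sequences and replicates. The siRNAs were of the Accell kind, which enter cells without a transfection reagent, in a delivery medium low in serum; normal serum was then given back, and the cells were taken 1 day later. The study calls the 3 replicates biological, and the arrays of one replicate each had a different siRNA treatment. The sources used here do not say whether these arrays came from separate starting cultures. The p-values below therefore measure the spread between arrays, which may be technical in part.

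NF-κB is a family of transcription factors that act as dimers. In the canonical pathway a dimer of p50 and RelA is held in the cytoplasm by IκB proteins until a kinase complex marks these inhibitors for degradation, after which the dimer enters the nucleus and binds κB sites near its target genes. NFKB1 encodes the precursor p105, from which p50 is made, and RELA encodes the subunit that carries the activation domain. The genes this dimer activates include those of its own inhibitors, of chemokines, cytokines and receptors, and of factors that block apoptosis. Hodgkin lymphoma cells are known for NF-κB activity that needs no outside signal.

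The cells carried the transcripts of their label. Of 16 B cell and Hodgkin markers on the array, 15 had a mean above 6, the low value limit used here on the log2 scale, while MS4A1, the B cell antigen CD20, which Hodgkin cells often lack, stood at 4.38. Markers of T and NK cells passed that limit in 7 of 15 cases and markers of myeloid cells in 4 of 11, with medians of 5.73 and 5.88 against 9.22 for the B cell and Hodgkin markers. Of 16 markers of stromal, endothelial or epithelial cells 12 passed, with a median of 6.86, and the highest was PECAM1, which many leukocytes also carry, at 12.3. Array medians lay between 6.94 and 6.99. The control array of sequence 2 in replicate 2 stood apart at 19 on the first principal component, where the other arrays lay between -8.86 and 6.04. RMA values carry no detection call, and in bulk RNA fewer cells of a type and less RNA per cell cannot be told apart.

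The reagents are shown first, since the KD rests on these oligos. The study names 2 siRNA sequences for each subunit, each of 19 bases, printed 5′ to 3′ as listed. Which strand is listed and which of a pair the labels number 1 is unstated in the sources used here.
NFKB1 siRNA, first of the pair: ccaaaguauaaagauauua
NFKB1 siRNA, other of the pair: ggcucauguuuacagcuuu
RELA siRNA, first of the pair: cuuccaaguuccuauagaa
RELA siRNA, other of the pair: ggauugaggagaaacguaa
Their share of G and C was 21.1% and 42.1% for NFKB1 and 36.8% and 42.1% for RELA.

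NFKB1 and RELA were both low on every KD array. The NFKB1 level (lowest, median and highest of 6 arrays, log2 scale) was 11.07, 11.19 and 11.31 in the control arm and 8.91, 9.20 and 9.68 in the KD arm. The RELA level was 9.79, 9.85 and 9.90 in the control arm and 8.13, 8.41 and 8.81 in the KD arm. For both genes the lowest control array lay far above the highest KD array. NFKB1 differed by -1.93, -1.86 and -1.96 in replicates 1, 2 and 3, and RELA by -1.43, -1.29 and -1.45. Sequence 1 gave differences of -2.12 for NFKB1 and -1.53 for RELA, and sequence 2 gave -1.71 and -1.25. The gap between the sequences within the KD arm was 0.41 ± 0.14 for NFKB1 (SE, 3 arrays per sequence) and did not pass (limma adjusted p = 0.999).

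Of the family members without an siRNA, NFKB2 alone was called. It encodes p100 and p52, the subunits of non-canonical signaling. Its level was 10.10, 10.19 and 10.29 in the control arm and 9.89, 10.03 and 10.09 in the KD arm, so the arms came close without overlap. The fall to 87.8% of control (limma adjusted p = 0.0422) was called in 2 of the 12 fits that left out 1 array, and not in the one without the control array that stood apart. REL, which encodes c-Rel, ran over 10.96 to 11.21 and 10.94 to 11.09 in the arms, and RELB over 8.64 to 8.78 and 8.63 to 8.76. Both overlapped between the arms and missed the threshold (adjusted p = 0.288 and 0.975).

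**Figure D1:**
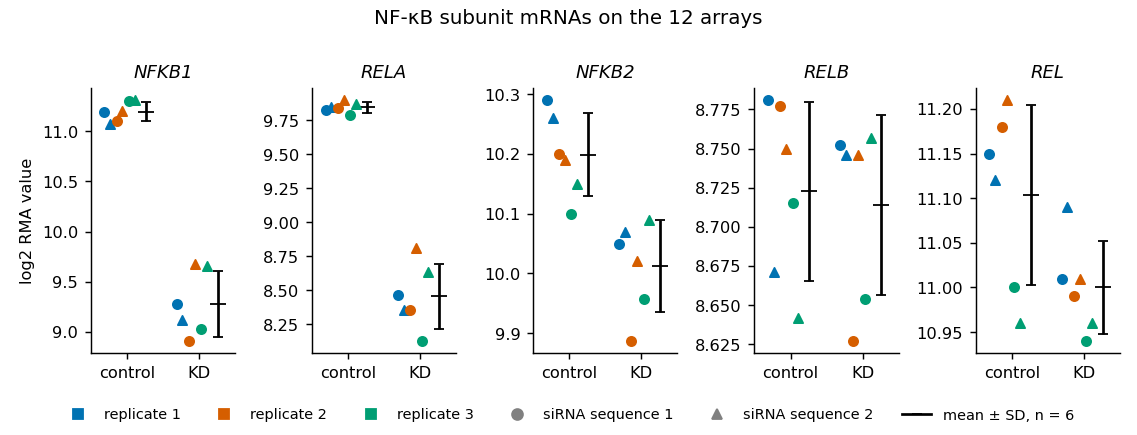
Log2 RMA value (vertical axis, with a scale of its own in each panel) of the 5 NF-κB subunit genes on the 12 arrays; colour marks the replicate, circles siRNA sequence 1 and triangles sequence 2, and each bar gives the arm's mean and SD. NFKB1 and RELA show a wide gap between the arms, NFKB2 a narrow one, and RELB and REL overlap.

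The comparison asked which transcripts depend on p50 and RelA. A transcript cluster, the set of probes for one locus, was called where limma's adjusted p was below 0.05 and KD and control differed by 10% or more. Of 15989 clusters 182 were called (1.14%), 140 lower (0.876%) and 42 higher (0.263%). At an unadjusted p below 0.05 limma gave 1683 of the 15989, 931 lower and 752 higher. Counts of list members below stand beside these shares. Clusters with several symbols made up 17 of the called falls and 3 of the called rises and were not named. The other called clusters belonged to 115 genes called lower and 39 called higher. A further quantile normalization moved the split of clusters to 160 lower and 93 higher, and centring each array on its median to 139 and 86. With the replicate block left out 68 were called, and with the control array that stood apart left out 218, of which 158 were among the 182. The 24 calls lost without that array include the named genes NFKB2, TNF, TNFRSF14, CD80, IL21R, DHX58, IFI35, RIGI, WARS1, MAP2K1, MIR17HG and SCPEP1. The median called fall was 0.27 on the log2 scale, to 83.2% of control, and the median called rise 0.23, to 117%, where the median difference of all clusters tested was 0.000497. Clusters called lower had a median control level of 9.64 and those called higher 8.82, against 8.46 for all clusters tested.

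The called differences were small. Each of the 182 had one sign over the 6 KD arrays, set against the control mean of the replicate, which a call by this rule favours. In 94 of the called clusters, 79 lower and 15 higher, the arms did not overlap. Over all clusters tested, 124 had every KD array below every control array (0.776%) and 59 had every KD array above (0.369%). Called falls had a median of -0.274 with sequence 1 and -0.239 with sequence 2, and called rises 0.227 and 0.231. Sequence 2 set against sequence 1 gave 0 called clusters by limma within the KD arm (0%) and 0 within the control arm (0%), with 562 and 381 at an unadjusted p below 0.05.

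**Figure D2:**
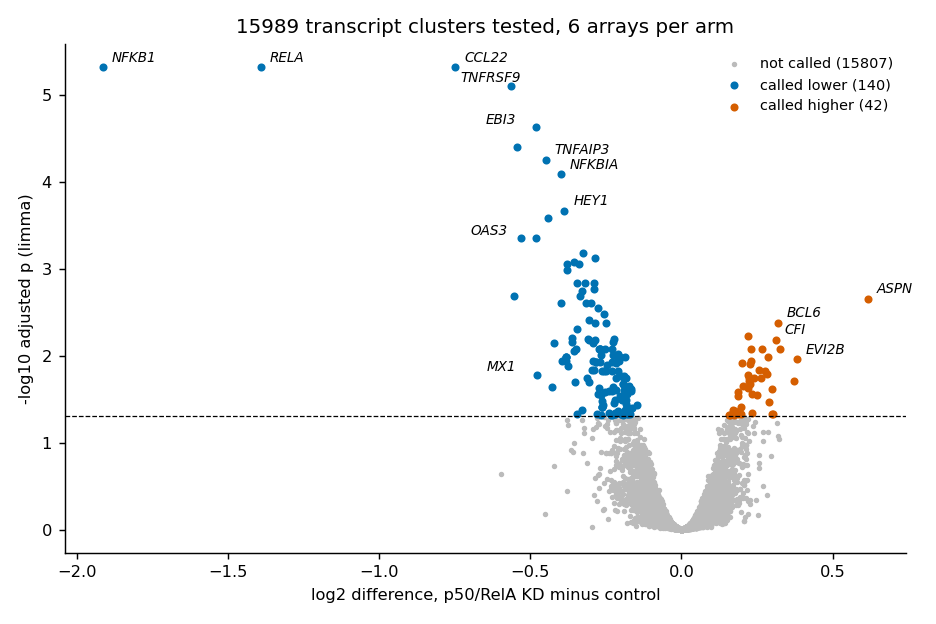
Log2 difference, p50/RelA KD minus control (horizontal axis), against -log10 of the limma adjusted p (vertical axis) for the 15989 clusters, coloured where called lower or higher. The 140 falls reach further from 0 than the 42 rises, and NFKB1 and RELA lie apart from all other genes.

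To show what lies upstream of called genes, the promoters of 6 genes called lower are printed as picked examples. From the NF-κB targets these are the chemokine CCL22, the receptor TNFRSF9 and the inhibitors TNFAIP3 and NFKBIA. From the interferon-stimulated genes they are OAS3 and IFIH1. The 6 are not typical of the calls. Each holds a κB-like match, where 33 of the 87 promoters of genes called lower did (37.9%) in the wider window searched below. Each is the 200 bases before the first listed RefSeq start (GRCh38.p14), read 5′ to 3′ along the gene. Capitals mark matches on either strand of the κB-like pattern GGGNNNTNCC or of GAAANNGAAA, the core of the interferon response element.
CCL22, chr16:57358583-57358782, plus strand: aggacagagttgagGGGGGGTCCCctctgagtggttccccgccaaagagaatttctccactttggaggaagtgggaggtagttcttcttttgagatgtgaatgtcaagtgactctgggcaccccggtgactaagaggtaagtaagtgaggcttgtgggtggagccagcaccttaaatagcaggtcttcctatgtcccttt
TNFRSF9, chr1:7940840-7941039, minus strand: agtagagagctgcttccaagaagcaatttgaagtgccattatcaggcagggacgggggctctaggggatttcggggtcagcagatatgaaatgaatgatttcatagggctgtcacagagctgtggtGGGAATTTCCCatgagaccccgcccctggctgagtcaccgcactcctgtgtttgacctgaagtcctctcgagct
TNFAIP3, chr6:137867059-137867258, plus strand: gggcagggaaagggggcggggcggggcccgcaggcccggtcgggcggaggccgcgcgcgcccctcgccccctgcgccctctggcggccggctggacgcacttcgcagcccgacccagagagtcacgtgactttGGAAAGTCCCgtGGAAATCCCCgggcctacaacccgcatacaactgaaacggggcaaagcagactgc
NFKBIA, chr14:35404750-35404949, minus strand: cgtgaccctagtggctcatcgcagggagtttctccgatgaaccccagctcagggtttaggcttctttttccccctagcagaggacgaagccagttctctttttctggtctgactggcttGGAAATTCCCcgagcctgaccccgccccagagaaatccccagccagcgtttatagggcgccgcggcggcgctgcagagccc
OAS3, chr12:112938274-112938473, plus strand: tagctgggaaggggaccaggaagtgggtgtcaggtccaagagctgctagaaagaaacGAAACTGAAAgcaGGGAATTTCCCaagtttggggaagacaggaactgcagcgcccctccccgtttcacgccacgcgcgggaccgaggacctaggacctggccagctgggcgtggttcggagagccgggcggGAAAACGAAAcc
IFIH1, chr2:162318685-162318884, minus strand: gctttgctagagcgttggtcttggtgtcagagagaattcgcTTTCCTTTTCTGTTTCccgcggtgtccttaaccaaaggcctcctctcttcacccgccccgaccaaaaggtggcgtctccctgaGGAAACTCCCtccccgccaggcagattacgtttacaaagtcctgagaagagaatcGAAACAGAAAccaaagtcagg
Both patterns stand in the OAS3 and IFIH1 windows. In TNFRSF9 and OAS3 the capitals of the κB-like pattern cover overlapping matches on both strands, and the first capitals of IFIH1 cover overlapping matches of the interferon pattern.

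The patterns were searched from 250 bases before to 50 after the start. GGGNNTTNCC, whose matches are all matches of GGGNNNTNCC too, stood in 5.67% of the 27305 promoters and in 6.57% of the 10916 that belong to tested genes. Of the 115 genes called lower 87 had a promoter in the table, and 14 of these held it (16.1%): BATF2, EBI3, FCHSD2, GBP4, IFIH1, IL6, NFKB1, NFKBIA, OAS3, RIGI, SEMA7A, TAP1, TNFAIP3 and TNFRSF9. Of the genes called higher it was 2 of 33 (6.06%), ACVR1C and RNF103. The looser GGGNNNTNCC stood in 21.1% of the promoters and 25.8% of those of tested genes, in 33 of the 87 called lower (37.9%) and in 6 of the 33 called higher (18.2%). GAAANNGAAA stood in 3.65% of the promoters, in 2.68% of those of tested genes and in 7 of the 87 (8.05%), EPSTI1, GBP4, IFIH1, MX1, OAS3, RELA and TAP1. Of the 33 called higher 1 held it (3.03%), NEO1. Of 8 called interferon-stimulated genes with a promoter, 5 held GAAANNGAAA (62.5%) and 4 held GGGNNTTNCC (50%). The siRNA targets are counted among the 87 and were lower by design, whatever their promoters hold. NFKB1 is 1 of the 14 and RELA 1 of the 7, and both are among the 33 called lower with GGGNNNTNCC. These are matches of letters in a window, given as a description.

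The inhibitors that close the NF-κB loop were among the clearest falls. NFKBIA, which encodes IκBα, stood at 12.40, 12.48 and 12.57 and at 12.02, 12.05 and 12.22 (lowest, median and highest array, control arm first here and below). TNFAIP3, which encodes the ubiquitin-editing enzyme A20, stood at 9.44, 9.70 and 9.74 and at 9.08, 9.19 and 9.37, and NFKBID, a nuclear member of the IκB family, at 8.57, 8.61 and 8.76 and at 8.22, 8.31 and 8.38. In all of these every KD array lay below every control array. The differences in replicates 1, 2 and 3 were -0.38, -0.35 and -0.46 for NFKBIA, -0.40, -0.45 and -0.50 for TNFAIP3 and -0.32, -0.36 and -0.26 for NFKBID. They came to 75.8%, 73.2% and 80.4% of control (limma adjusted p = 8.21e-05, 5.61e-05 and 0.00249).

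The IκB family had 2 of 7 measured members called, both lower, and a median of -0.213. Further members missed the threshold, NFKBIZ at -0.22 ± 0.05, NFKBIE at -0.21 ± 0.05 and NFKBIB at -0.16 ± 0.05 (SE, n = 6 per arm; limma adjusted p = 0.0551, 0.0716 and 0.179). TNFAIP3 was the called member of 14 regulators that join or remove ubiquitin on this pathway. Of 20 measured genes for NIK, the IKK subunits, TRAF adaptors and cIAPs, BIRC2 was called, and TRAF1 stood at -0.16 ± 0.04 (adjusted p = 0.139).

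Chemokines that draw T cells with the receptor CCR4 fell. CCL22 stood at 10.25, 10.58 and 10.71 and at 9.66, 9.73 and 9.97, and CCL17, its neighbour in the genome, at 8.92, 9.04 and 9.22 and at 8.53, 8.59 and 8.77. The arms did not overlap in either gene. CCL22 differed by -0.86, -0.77 and -0.62 in the replicates, to 59.5% of control, and CCL17 by -0.50, -0.47 and -0.36, to 73.7% (limma adjusted p = 4.84e-06 and 0.000262). CCL5, which attracts T cells and monocytes, stood at 11.16, 11.25 and 11.42 and at 10.80, 10.91 and 11.20, with 1 KD array inside the control range, and fell to 80.8% (adjusted p = 0.00393). These were the 3 called of 20 measured chemokines. CCL3 differed by -0.09, -0.32 and -0.56 in the replicates and missed the threshold (adjusted p = 0.0783).

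Interleukins moved in both directions, with 3 lower and 1 higher of 15 measured. EBI3, a chain shared by interleukins 27 and 35, stood at 10.04, 10.23 and 10.41 and at 9.65, 9.72 and 9.89, and IL6 at 10.24, 10.33 and 10.81 and at 9.88, 10.06 and 10.18, both without overlap. IL13, which Hodgkin cells are known to use as a growth factor of their own, stood at 7.45, 7.80 and 8.02 and at 7.22, 7.44 and 7.60, with overlap. EBI3 fell to 71.6% of control, IL6 to 77.8% and IL13 to 78.5% (limma adjusted p = 2.37e-05, 0.00629 and 0.00837). IL7, a survival factor for lymphocytes, lay near the low value limit, at 6.10, 6.25 and 6.52 and at 6.47, 6.55 and 6.77, and rose by 0.30 ± 0.07 (adjusted p = 0.0468), a call made in 2 of the 12 fits that left out 1 array. Among 7 measured TNF superfamily ligands LTA, which encodes lymphotoxin α, differed by -0.19 on the log2 scale, and TNF fell to 83.3% of control. The array has 3 clusters with identical values for TNF and 3 with nearly the same values for LTA, so each gene is a single measurement. TNF was called in 2 of the 12 fits that left out 1 array, and not in the one without the control array that stood apart.

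Receptors of the TNF family fell in 3 of 23 measured cases, where 0.876% of all clusters tested were called lower. With 1 array left out 1 to 2 of the list were called, and with any replicate left out 1. TNFRSF9, the costimulatory receptor 4-1BB, stood at 10.30, 10.43 and 10.64 and at 9.75, 9.89 and 10.07. This left a gap between the arms, and the replicate differences of -0.53, -0.60 and -0.56 were close to each other. CD40, which receives help from T cells, stood at 10.63, 10.78 and 10.88 and at 10.45, 10.57 and 10.74, with overlap, and TNFRSF14, the receptor HVEM, at 9.92, 9.93 and 10.17 and at 9.66, 9.72 and 9.89, with none. They came to 67.7%, 87.6% and 85.4% of control (limma adjusted p = 7.93e-06, 0.0246 and 0.0484), and TNFRSF14 was called in 1 of the 12 fits that left out 1 array. CD40 was called in 5 of the 15 fits that left out an array or a replicate, and TNFRSF9 in all 15. FAS, a death receptor, stood at -0.07 ± 0.03 (adjusted p = 0.532).

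ICAM1, the ligand of the integrin LFA-1, stood at 12.14, 12.24 and 12.34 and at 11.87, 11.97 and 12.04, with close replicate differences of -0.27, -0.28 and -0.30. It was the called member of 23 adhesion molecules, at 82.0% of control (limma adjusted p = 0.000748). Of 18 costimulatory and checkpoint ligands SEMA7A, a semaphorin, fell to 79.6% without overlap (8.96 to 9.28 and 8.76 to 8.89), and CD80, a ligand of CD28, to 87.5% with overlap. CD83, a surface marker of activated cells, had arms that did not overlap (7.54 to 7.90 and 7.36 to 7.48) but missed the threshold (adjusted p = 0.0517). Among 28 cytokine receptors CSF2RB, the chain shared by the receptors of GM-CSF and interleukins 3 and 5, fell to 82.6% and IL21R, the interleukin 21 receptor, to 88.3%, both without overlap. CD80 was called in 1 and IL21R in 2 of the 12 fits that left out 1 array.

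Of 18 measured chemoattractant receptors 1 was called lower and 1 higher. CXCR5, which leads B cells into follicles, stood at 7.04, 7.39 and 7.56 and at 6.66, 7.01 and 7.11 and fell to 76.9% (limma adjusted p = 0.000879). GPR15, a homing receptor, stood at 11.38, 11.52 and 11.86 and at 11.69, 11.87 and 11.94 and rose to 122% (adjusted p = 0.0343), with replicate differences of 0.46, 0.28 and 0.14. Both had overlapping arms. GPR183, a receptor that positions B cells, had every KD array at or above every control array (5.57 to 6.13 and 6.13 to 6.35), near the low value limit, and was not called (adjusted p = 0.059).

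Genes that hold back apoptosis fell in 3 of 13 measured cases, a count of 1 to 5 with an array left out, 0 with any replicate left out and 1 without the replicate block. BCL2L1, which encodes BCL-XL, stood at 11.38, 11.52 and 11.63 and at 11.01, 11.21 and 11.37, so its arms came close without overlap. BIRC2, which encodes cIAP1, stood at 9.58, 9.73 and 9.84 and at 9.39, 9.47 and 9.59, and CFLAR, which encodes c-FLIP, at 10.66, 10.80 and 10.95 and at 10.48, 10.58 and 10.70. In both of these 1 array of each arm lay within the range of the other arm. The 3 genes fell to 81.9%, 84.0% and 86.1% of control (limma adjusted p = 0.0147, 0.0263 and 0.0181), and BIRC2 was called in 4 of the 12 fits that left out 1 array. Another cluster of CFLAR was not called (adjusted p = 0.842). Of 27 measured pro-apoptotic genes limma called 0, with 4 at an unadjusted p below 0.05, among them PMAIP1, the BH3 protein NOXA, at -0.10 ± 0.03 and BAK1, a pore-forming BCL2 relative, at 0.12 ± 0.04.

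Over the list of textbook NF-κB targets, 27 of 78 measured genes were lower, NFKB1 itself among them, and 0 were higher, against 0.876% and 0.263% of all clusters tested. The list median was -0.148, 71 of the 78 differences were negative, and in 21 every KD array lay below every control array. The mean level of the list was between 9.52 and 9.64 on the control arrays and between 9.31 and 9.43 on the KD arrays. TNFAIP6, a hyaluronan-binding protein of the list, stood at 8.70, 8.83 and 9.12 and at 8.18, 8.37 and 8.52, without overlap, and fell to 71.6% (limma adjusted p = 0.000448). With 1 array left out 19 to 26 of the list were called, 25 without the control array that stood apart; with a replicate left out it was 8 to 12, and without the replicate block 14.

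**Figure D3:**
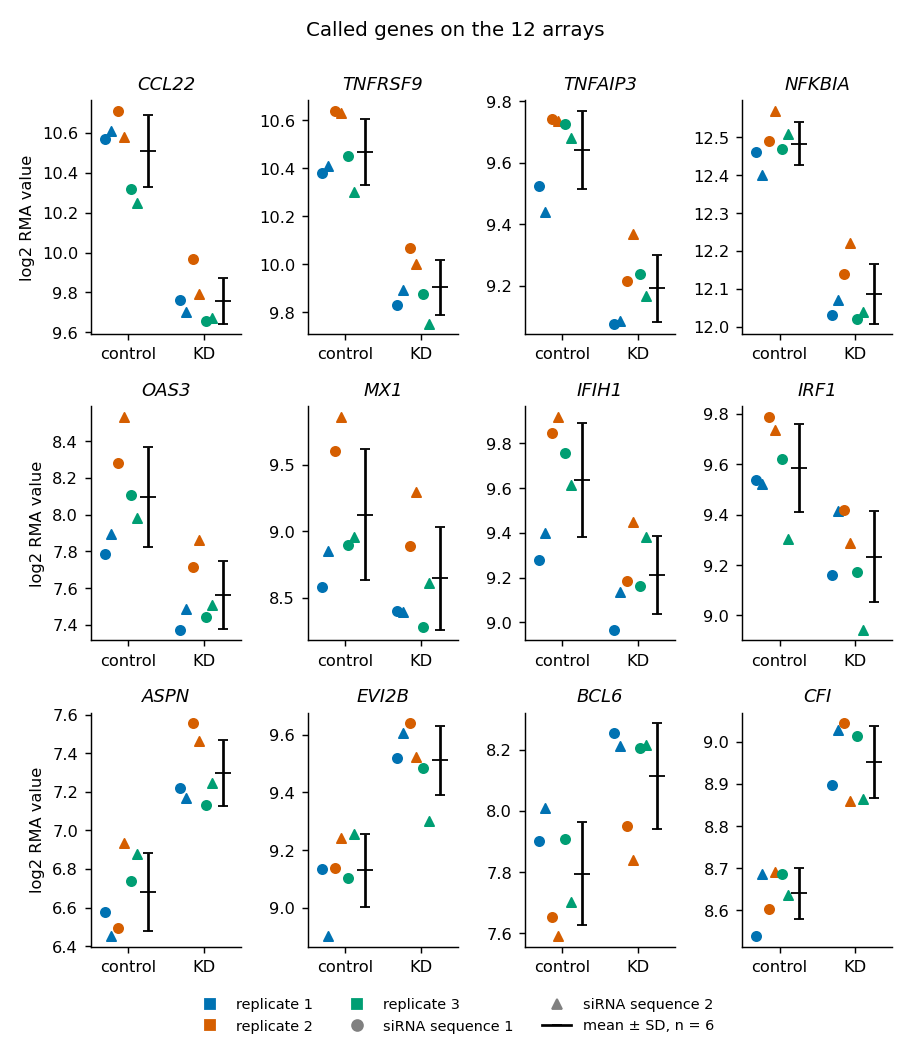
Log2 RMA value (vertical axis, with a scale of its own in each panel) of 12 called genes on the 12 arrays; colour marks the replicate, circles siRNA sequence 1 and triangles sequence 2, and each bar gives the arm's mean and SD. CCL22, TNFRSF9, TNFAIP3 and NFKBIA leave a gap between the arms, while MX1 and IFIH1 overlap, with their highest control arrays in replicate 2.

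Signaling and early response genes changed in smaller number, 2 of 20 AP-1 and ATF factors and 3 of 31 immediate early genes, all lower. Over all clusters tested 0.876% were called lower. With 1 array left out 0 to 2 of the AP-1 list and 1 to 4 of the immediate early list were called. With any replicate left out 0 of either list were called. JUN, an AP-1 subunit, stood at 8.75, 8.80 and 9.17 and at 8.39, 8.65 and 8.81, and EGR1, an immediate early zinc finger factor, at 10.05, 10.38 and 10.85 and at 9.97, 10.12 and 10.51. EGR1 had 5 of 6 KD arrays within the control range, with differences of -0.12, -0.34 and -0.26 within replicates. DUSP2, a MAP kinase phosphatase, stood at 8.43, 8.48 and 8.67 and at 8.05, 8.13 and 8.33, and GADD45B, a stress response gene, ran over 8.53 to 8.68 and 8.35 to 8.49, both without overlap. The other called AP-1 family member was BATF2, at 85.0% of control, called in 1 of the 12 fits that left out 1 array. Of the 15 fits that left out an array or a replicate, JUN and EGR1 were called in 5 each, DUSP2 in 12 and GADD45B in 8. MYC, which drives cell growth, had arms that did not overlap (10.39 to 10.65 and 10.23 to 10.37) at -0.19 ± 0.05 (adjusted p = 0.0902). STAT5A, which carries cytokine signals to the nucleus, was the called member of 28 JAK-STAT genes and stood at 9.73, 9.84 and 9.95 and at 9.44, 9.48 and 9.71 (81.5% of control, limma adjusted p = 0.0146).

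HEY1, a transcriptional repressor downstream of Notch, stood at 7.99, 8.15 and 8.23 and at 7.67, 7.71 and 7.91. Its replicate differences were -0.42, -0.36 and -0.38. It was the called member of 33 Notch genes, at 76.4% of control (limma adjusted p = 0.000217). CDKN1A, the cell cycle inhibitor p21, stood at 9.24, 9.35 and 9.49 and at 8.94, 9.06 and 9.12 and fell to 79.8% (adjusted p = 0.000664). It was the called member of 20 genes for G1 cyclins, their kinases and inhibitors. Of 20 p53 targets it was called together with DDB2, a DNA repair protein that rose to 117% (adjusted p = 0.0181). None of these genes had overlapping arms.

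Interferon-stimulated genes fell in 10 of 67 measured cases, with 0 higher and a list median of -0.139, where 0.876% of all clusters tested were called lower. With the replicate as a random block limma called 2 of the list, and without the replicate block 0. OAS3, which makes the activator of RNase L, stood at 7.78, 8.04 and 8.53 and at 7.37, 7.5 and 7.86, and MX1, an antiviral GTPase, at 8.58, 8.93 and 9.86 and at 8.28, 8.51 and 9.30. IFIH1, the RNA sensor MDA5, stood at 9.28, 9.69 and 9.92 and at 8.97, 9.17 and 9.45. In each the arms overlapped, and the control arrays of replicate 2 were the highest. The differences in replicates 1, 2 and 3 were -0.41, -0.62 and -0.57 for OAS3, -0.32, -0.64 and -0.48 for MX1 and -0.29, -0.57 and -0.42 for IFIH1 (limma adjusted p = 0.000448, 0.0166 and 0.00711).

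The other called members were TRIM22, XAF1, GBP4, EPSTI1, DHX58, IFI35 and RIGI, at 68.0% to 88.1% of control. TRIM22, an antiviral ubiquitin ligase, had a KD median of 5.83, under the low value limit. RIGI and DHX58, the sensor RIG-I and its relative LGP2, made up with IFIH1 the 3 called of 17 RNA sensors and interferon genes, of which 1 was called without the control array that stood apart. In 0 of the 67 genes did every KD array lie below every control array, near the 0.776% of all clusters tested. Of the 67 differences 62 were negative, and 37 had an unadjusted p below 0.05. The list median was -0.0674, -0.199 and -0.185 in replicates 1, 2 and 3. The mean level of the list ran from 8.8 to 9.3 over the control arrays and from 8.73 to 9.05 over the KD arrays, so the arms overlapped. With 1 array left out 5 to 11 were called, 8 without the control array that stood apart, and with a replicate left out 2 to 3. DHX58 was called in 2 of the 12 fits that left out 1 array, IFI35 in 1 and RIGI in 1.

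Of 10 measured interferon regulatory factors 2 were called, both lower. IRF1 stood at 9.30, 9.58 and 9.79 and at 8.94, 9.23 and 9.42, with overlap, and IRF5 at 9.93, 10.00 and 10.19 and at 9.67, 9.77 and 9.84, with none. They fell to 78.3% and 83.1% of control (limma adjusted p = 0.0203 and 0.00976) and 0 of the 10 were called by limma with any replicate left out; 4 had an unadjusted p below 0.05 with all arrays. TAP1, the transporter that brings peptides to MHC class I, stood at 12.54, 12.58 and 12.76 and at 12.25, 12.35 and 12.46, without overlap, and fell to 83.0% (adjusted p = 0.00837); its 3 clusters held identical values. No other of 15 genes for MHC class I presentation was called, and TAP2, the partner of TAP1, stood at -0.29 ± 0.07 (adjusted p = 0.0688). Of 17 MHC class II genes limma called 0, with 4 at an unadjusted p below 0.05.

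Rises were fewer and came mostly from genes outside the lists. ASPN, an extracellular matrix proteoglycan, stood at 6.45, 6.66 and 6.94 and at 7.13, 7.23 and 7.56. EVI2B, a leukocyte membrane protein, stood at 8.90, 9.14 and 9.26 and at 9.30, 9.52 and 9.64, and CFI, complement factor I, at 8.54, 8.66 and 8.69 and at 8.86, 8.96 and 9.04. The arms left a gap in all of these. ASPN rose to 153% of control, EVI2B to 130% and CFI to 124% (limma adjusted p = 0.00222, 0.011 and 0.00657). With sequences 1 and 2 apart, ASPN differed by 0.62 and 0.61, EVI2B by 0.42 and 0.35 and CFI by 0.35 and 0.28.

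BCL6, the repressor that directs germinal centre B cells, stood at 7.59, 7.80 and 8.01 and at 7.84, 8.21 and 8.26. Its arms overlapped, with the lowest arrays of each arm in replicate 2, and within replicates it differed by 0.28, 0.27 and 0.40 (125% of control, limma adjusted p = 0.00417). SH3D19, an adaptor protein, rose to 130% without overlap (6.59 to 6.97 and 7.05 to 7.38), and ACVR1C, a receptor of the TGF-β family, to 125% with overlap (8.10 to 8.58 and 8.52 to 8.89). PRICKLE1, a protein of planar cell polarity, and PCDH9, a protocadherin, rose to 121% and 118% without overlap. MID1, TMEM71, ASPH, FOXP2 and SAMSN1 rose to between 119% and 123% with overlap, FOXP2 and SAMSN1 called in 2 each of those 12 fits. PTPRC, which encodes CD45, was the called member of 31 genes of B lineage factors and the receptor, at 117%, and the germinal centre list had BCL6 higher and CXCR5 lower of 19. PAX5, which maintains B cell identity, stood at -0.04 ± 0.04 (adjusted p = 0.858). HOXD10 and HOXD11, neighbouring homeobox genes, rose to 117% each. Of 55 clusters of histone genes 3 were called, all higher, under the names H4C2, H2AC4 and H2BC21; histone genes share sequence, so which of them changed is uncertain, and they were called in 1, 3 and 3 of the 12 fits that left out 1 array.

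Among falls outside the lists, HAPLN3, a link protein of hyaluronan, stood at 9.12, 9.31 and 9.63 and at 8.61, 8.82 and 9.07, without overlap, and fell to 68.6%. Further falls were TTLL6, an enzyme that modifies tubulin (75.9% of control), PRR5L, a partner of mTORC2 (76.8%), APOD, an apolipoprotein (77.0%), MREG (77.1%), DOC2A, a calcium sensor of secretion (78.1%), and PDGFRL (78.7%). Kinase and phosphatase genes were PTK2B, which encodes the focal adhesion relative PYK2 (78.1%), ITPKB, an inositol kinase (80.1%), NUAK2 (85.3%), MAP2K1, the kinase MEK1 (88.3%), and PPP2R5B, a subunit of PP2A (82.5%). PHF19, a partner of the Polycomb complex PRC2, fell to 80.6%, and AGO2, the Argonaute that slices RNA, to 89.0%. MIR17HG, the host transcript of a microRNA cluster, and MIR7-2 were called at 85.9% each, on probes for the locus and not for a mature microRNA. MIR7-2 lay at the low value limit of 6, at 6.05 to 6.25 in the control arm and 5.78 to 6.06 in the KD arm. With 1 array left out MAP2K1 and MIR17HG were called in 2 of 12 fits and MIR7-2 in 3.

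Most other programs of the cell had few or 0 calls. Of 52 measured genes of mitosis and G2/M limma called 0, with 14 at an unadjusted p below 0.05, against 1683 of all 15989 clusters tested. The differences were small but mostly of one sign, 49 of them positive. Their median of 0.0761 was 0.0622, 0.0724 and 0.0895 in replicates 1, 2 and 3. Among these genes NDC80, a kinetochore protein, stood at 0.20 ± 0.05 (limma adjusted p = 0.0811). With a further quantile normalization or with arrays centred, 1 of them was called higher. Of 39 S phase genes 0 were called and 1 had an unadjusted p below 0.05. Genes of hypoxia and glycolysis had 0 of 37 called, with 5 at an unadjusted p below 0.05, and their median of -0.148, -0.106 and 0.158 in replicates 1, 2 and 3 changed sign between replicates. Among 36 genes of unfolded protein and amino acid stress WARS1, a tRNA synthetase, was called at 86.4% of control (limma adjusted p = 0.0432), but in 1 alone of the 12 fits that left out 1 array.

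Cholesterol synthesis (23 genes), heat shock (13), plasma cell genes (15), the respiratory chain (32), ribosomal proteins (24) and reference genes (11) had 0 called by limma (1 cholesterol gene was higher without the control array that stood apart), with 3, 2, 2, 1, 1 and 1 at an unadjusted p below 0.05. Markers of T and NK cells, of myeloid cells and of stromal, endothelial or epithelial cells had 0 called among 7, 4 and 12 measured, with 0, 0 and 1 at an unadjusted p below 0.05. Of the 15 measured B cell and Hodgkin markers 4 were lower, CCL22, CCL17, CD40 and CD80, which are NF-κB targets as well.

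The study had singled out 21 of the measured genes, of which 9 were lower and 1 higher. Part of them were picked for their values on these same arrays, and their count is therefore no independent evidence of direction. Of the 11 not called, PTPN6, the phosphatase SHP-1, had every KD array above every control array (7.56 to 7.70 and 7.73 to 7.82), at 0.09 ± 0.03 (limma adjusted p = 0.289). The others overlapped and lay between -0.12 for JUNB and 0.10 for JAK1.

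The calls were not equally firm. All 12 fits that left out 1 array held 86 of the 182, 74 lower and 12 higher. All 3 fits that left out a replicate held 11, each of them lower: NFKB1, RELA, CCL22, TNFRSF9, HAPLN3, OAS3, EBI3, TNFAIP6, TNFAIP3, NFKBIA and HEY1. NFKB1, RELA and CCL22 were the 3 genes called under every setting tried, the fits of a single siRNA sequence included. Of the 182 calls 124 were larger with sequence 1 than with sequence 2, and 90 were largest in replicate 2. None of the 182 differences changed its sign under any of the 30 settings.

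To ask where this KD differs from the p52/RelB KD, its differences were set beside those of that KD. The p52/RelB KD was measured on 12 other arrays, control arrays of its own included. Array medians lay between 7.39 and 7.51 in that experiment and between 6.94 and 6.99 in this one. No scan batch held arrays of both experiments. A difference between the KDs therefore cannot be told apart from a difference between the experiments. Of 15962 clusters tested in both, 1732 were called in the p52/RelB KD (10.9%). Of the 182 calls here 108 were called there in the same direction, 82 lower and 26 higher. The difference between the KDs, tested by limma with all 24 arrays together, was called in 735 of 15989 clusters (4.6%) and in 69 of the 182. In 36 of these the difference went further in the direction of the p50/RelA KD, in 31 of them downward, the siRNA targets NFKB1 and RELA included. The 182 were picked by their difference in the p50/RelA KD, and that choice favours a larger difference here, also for the genes named next. CCL22 (-0.75 here and -0.86 there) and TNFAIP3 (-0.45 and -0.35) did not pass this test (adjusted p = 0.663 and 0.619). A larger fall here was called for CCL17 (-0.44 and 0.12), NFKBIA (-0.40 and 0.04), TNFRSF9 (-0.56 and -0.11), ICAM1 (-0.29 and -0.04) and IRF1 (-0.35 and -0.03), with adjusted p of 2.52e-05, 3.4e-05, 6.46e-05, 0.00502 and 0.0344. Of the rises ASPN, EVI2B, PRICKLE1, MID1 and PCDH9 were smaller here, and TMEM71 (0.26 and -0.06) was larger.

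Opposite calls in the KDs were found for 8 clusters. Lower here and higher there were NFKB1 (-1.92 and 0.15), OAS3 (-0.53 and 0.26), PRR5L (-0.38 and 0.36), APOD (-0.38 and 0.23), CCL5 (-0.31 and 0.37), EGR1 (-0.24 and 0.27) and TESC, a calcium-binding protein (-0.23 and 0.32). SCPEP1, a serine carboxypeptidase, was higher here and lower there (0.20 and -0.28). In all 8 the difference between the KDs was called as well. Among the interferon-stimulated genes XAF1 (-0.43 and 0.22) also differed between the KDs, whereas MX1, IFIH1, EPSTI1, TRIM22 and RIGI did not pass (limma adjusted p = 0.22, 0.825, 0.296, 0.0826 and 0.748). The differences of IFIH1 (-0.42 and -0.52), EPSTI1 (-0.35 and -0.60) and RIGI (-0.18 and -0.26) were the larger in the p52/RelB KD.

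**Figure D4:**
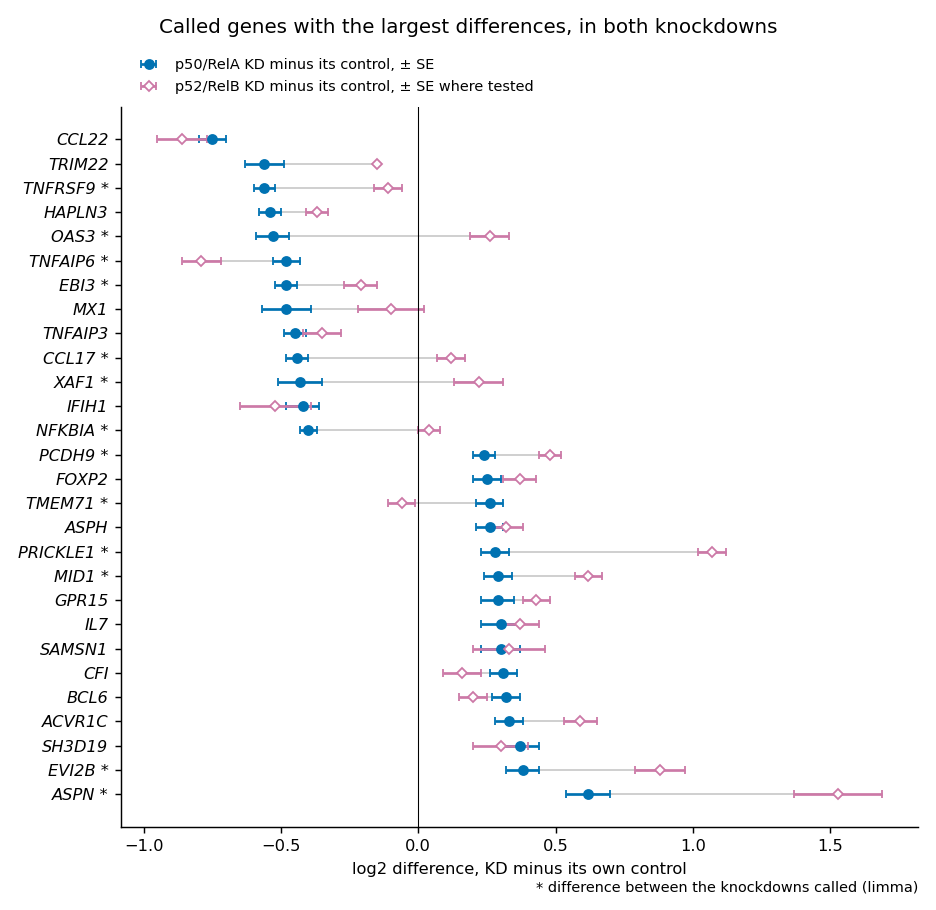
Log2 difference with its SE for the 13 genes called lower and the 15 called higher with the largest difference, siRNA targets left out, in the p50/RelA KD and in the p52/RelB KD, each against its own control; an asterisk marks a difference between the KDs called by limma. Points for CCL22 and TNFAIP3 lie close together, while those of OAS3, CCL17 and XAF1 lie on opposite sides of 0.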

How the data were processed

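The authors deposited log2 values from RMA (background correction, quantile normalization and probe summary; version not given in the sources used here) of Affymetrix Human Gene 1.0 ST arrays, 33297 transcript clusters on 24 arrays. RMA values understate large differences. The methods name an adjustment for covariates without saying which; replicates still differed in the values. Symbols came from the platform annotation (19460 clusters with 1 symbol, 1754 with several, which were not named, and 12083 not listed), updated through RefSeq GRCh38.p14.

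KD and control were compared with limma 3.58.1 in R 4.3.3 (lmFit, eBayes), both siRNA sequences pooled and replicate as block. Clusters with a symbol were kept where over 50% of the 12 arrays were at least 6. A call needed a Benjamini-Hochberg adjusted p below 0.05 and a difference of at least 10%; differences are given as KD minus control with the fit's SE (standard error). The methods' t-test was replaced by limma and tried as an alternative. Replicates were treated as paired, since control and KD deviations of the same replicate correlated at 0.448, 0.193 and 0.252; each was 1 scan batch of 4 arrays with both arms. The median SE of 0.0474 and the number of arrays limit the precision. Differences between the KDs were tested over 24 arrays. The search of promoters and the figures used Python 3.11.15 with pandas 2.3.3 and matplotlib 3.10.9, or R. Scripts were tested on simulated data. Named were the family, the largest calls, called members of 43 lists, the members nearest to the threshold and the study's genes. Counts of list members with arrays left out were added after seeing the data. The members and lists were chosen with earlier results of these data known.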

Additional observations from a re-analysis of the deposited data

Results flagged for a closer look

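Levels of single arrays were looked at in 138 sets of 6 arrays, where chance marks about 1 in 20, and 2 sets held an array far from the rest. Both were highest on the control array of siRNA sequence 1 in replicate 2, NFKBID at 8.76, where the next array was at 8.62, and TNFRSF14 at 10.17, where the next was at 10.01.

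The other results brought up here are genes of the report whose difference, KD minus control, was not the same in the p50/RelA KD and in the p52/RelB KD by limma's test over 24 arrays. Each is given as the first difference minus the second, followed by both differences on the log2 scale and the adjusted p of the test. The KDs were made in separate experiments, and the KD and its experiment cannot be told apart. Apart from the subunit genes, the genes looked at were picked because they were called in the p50/RelA KD. That choice by the same values favours a larger difference in the p50/RelA KD. The siRNA targets themselves were NFKB1 by -2.06 (from -1.92 and 0.15, adjusted p = 1.22e-08) and RELA by -1.45 (from -1.39 and 0.06, adjusted p = 3e-08) and, on the side of the p52/RelB KD, NFKB2 by 1.15 (from -0.19 and -1.34, adjusted p = 2.18e-11) and RELB by 0.28 (from -0.01 and -0.29, adjusted p = 0.00842). REL, which encodes c-Rel and had no siRNA, differed by 0.47 (from -0.10 and -0.57, adjusted p = 0.00134).

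Several genes had a more negative difference in the p50/RelA KD than in the p52/RelB KD. Of the inhibitor and the chemokines these were NFKBIA by -0.44 (from -0.40 and 0.04, adjusted p = 3.4e-05), CCL17 by -0.56 (from -0.44 and 0.12, adjusted p = 2.52e-05) and CCL5 by -0.68 (from -0.31 and 0.37, adjusted p = 2.56e-07). Cytokine chains and receptors were EBI3 by -0.27 (from -0.48 and -0.21, adjusted p = 0.0224), IL6 by -0.34 (from -0.36 and -0.02, adjusted p = 0.019) and TNFRSF9 by -0.45 (from -0.56 and -0.11, adjusted p = 6.46e-05). Of the adhesion and early response genes these were ICAM1 by -0.25 (from -0.29 and -0.04, adjusted p = 0.00502), DUSP2 by -0.36 (from -0.36 and -0.01, adjusted p = 0.00896) and EGR1 by -0.51 (from -0.24 and 0.27, adjusted p = 9.33e-05). In NFKBIA, CCL17, CCL5 and EGR1 the p52/RelB KD gave a positive difference.

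Of the 10 called interferon-stimulated genes 5 differed between the KDs, and MX1, IFIH1, EPSTI1, TRIM22 and RIGI did not pass. OAS3 differed by -0.79 (from -0.53 and 0.26, adjusted p = 3.18e-05) and XAF1 by -0.65 (from -0.43 and 0.22, adjusted p = 0.00455). Further members were GBP4 by -0.47 (from -0.40 and 0.07, adjusted p = 0.0306), DHX58 by -0.31 (from -0.28 and 0.03, adjusted p = 0.0297) and IFI35 by -0.35 (from -0.27 and 0.08, adjusted p = 0.0137). IRF1, which acts above them, differed by -0.32 (from -0.35 and -0.03, adjusted p = 0.0344).

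A fall that was smaller in the p50/RelA KD was seen for TNFAIP6 by 0.31 (from -0.48 and -0.79, adjusted p = 0.0423), SEMA7A by 0.52 (from -0.33 and -0.85, adjusted p = 6.17e-05) and CSF2RB by 0.17 (from -0.28 and -0.45, adjusted p = 0.0462). The same held for HEY1 by 0.30 (from -0.39 and -0.69, adjusted p = 0.019), BIRC2 by 0.37 (from -0.25 and -0.62, adjusted p = 0.0371) and LTA by 0.25 (from -0.19 and -0.44, adjusted p = 0.0124). Among rises, the smaller were PRICKLE1 by -0.79 (from 0.28 and 1.07, adjusted p = 2.56e-07), MID1 by -0.33 (from 0.29 and 0.62, adjusted p = 0.00608) and PCDH9 by -0.24 (from 0.24 and 0.48, adjusted p = 0.0283), as well as EVI2B by -0.49 (from 0.38 and 0.88, adjusted p = 0.0175) and ASPN by -0.91 (from 0.62 and 1.53, adjusted p = 0.00608). TMEM71, the exception, differed by 0.32 (from 0.26 and -0.06, adjusted p = 0.0125).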

How the results depend on the processing

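Under 30 settings none of the 182 called differences changed direction, but their count did. With no replicate block 68 clusters were called, 58 lower and 10 higher, and 283 between the KDs. Replicates left out in turn gave 16 to 52 calls, 16 to 44 lower and 0 to 8 higher, and 251 to 536 between the KDs. Arrays left out in turn gave 98 to 218, 80 to 149 lower and 16 to 87 higher, and 518 to 828 between the KDs; the rise to 218 and 87 came without control sequence 2 of replicate 2, and totals of 98 to 116 without KD sequence 1 of replicate 1 or 3, KD sequence 2 of replicate 1 or 2, control sequence 2 of replicate 1 or control sequence 1 of replicate 2. Calls numbered 42 (36 lower, 6 higher) with sequences averaged, 6 (5 and 1) with sequence 1 alone and 3 (3 and 0) with sequence 2 alone, from fewer values. The methods' t-test called 34 (31 and 3) on the values as deposited and 299 (101 higher) on values adjusted for replicate. The count of 299 runs high, since that test did not allow for the degrees of freedom spent on the adjustment. The trend option of eBayes gave 282 (81 higher) and array weights 370 (229 lower, 141 higher). Higher calls alone moved to 27 with no low value filter, 70 with a mean of at least 7, 93 with a further quantile normalization and 86 with centred arrays. The cause of these shifts was not tested. The contrast of siRNA sequences gave 0 calls by limma under each setting run for it.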
